A study of Homo sapiens with 6 samples.

Results

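The genes described are 8 transcription factors of the pancreas and the foregut epithelium: SOX9, GATA6, GATA4, FOXA1, FOXA2, PDX1, HNF4A and ELF3. They were chosen by symbol, and all 8 have a row among the 19912 rows of the deposited mRNA table. RNA was sequenced from 6 libraries labelled as PANC-1, a human pancreatic ductal carcinoma cell line, with the phenotype of resistance to gemcitabine, a nucleoside drug. In 3 libraries the treatment is labelled as control, and in 3 it is a short hairpin RNA against the splicing factor SRSF3. All 6 carry the resistance label. The derivation of the resistant line, the control construct and the origin of the replicates were not given in the sources used here. Accordingly, p-values cover the spread among these 6 libraries alone, and that spread may be technical. In RNA from whole cultures, fewer cells that express a gene and less RNA per cell cannot be told apart. Values are deposited FPKM, fragments scaled by gene length and by the fragments of the library. Mean ± SD is over 3 libraries per group.

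These factors belong to the network that specifies foregut endoderm and pancreas and that remains active in part in duct cells. GATA and FOXA factors can bind closed chromatin, and PDX1 and HNF4A act in the pancreatic bud and in gut epithelium, HNF4A also in liver. SOX9 marks progenitors and adult ducts, and ELF3 is an ETS factor of differentiated epithelium. In pancreatic cancer, GATA6, HNF4A, PDX1, FOXA factors and ELF3 are known as factors of the classical state, which is more epithelial than the basal-like state. PANC-1 is generally described as a poorly differentiated line rich in the mesenchymal filament vimentin.

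The libraries held between 24558238 and 27351642 fragments, recovered from the steps of the FPKM values. All 8 factors lay on the steps that whole fragment numbers leave, while 27 rows of the mRNA table did not, and none of those belongs to a gene list used here. SRSF3 stood at 37.0, 39.6 and 39.2 FPKM in control libraries 1 to 3 and at 36.95, 37.1 and 38.6 FPKM in knockdown libraries 1 to 3 (limma adjusted p = 0.612). No fall of the targeted mRNA was detected, so "knockdown" below is the label of those libraries and each direction is that of the label. Vimentin (VIM) had 1 to 5 fragments per library, between 0.00709 and 0.0389 FPKM, and the epithelial cadherin gene CDH1 stood between 71.4 and 83.5 FPKM. The vimentin level goes against what is known of PANC-1. VIM and CDH1 were chosen after their values were seen. CDX2, a factor of intestinal epithelium, stood between 63.0 and 80.8 FPKM, and the duct keratin gene KRT7 between 0.0895 and 0.241 FPKM, as given below. The identity of the cells was not tested, so PANC-1 is likewise the label of these libraries. Knockdown library 1 stood apart in its mitochondrial mRNAs, which made up 32.1% of summed FPKM against 25.6% to 27.5% in the other libraries.

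Of the 8 factors, 7 passed the filter of a mean of at least 0.5 FPKM, and 2 of these, ELF3 and FOXA1, changed, both lower in the knockdown libraries. The test was limma on log2(FPKM + 1) over the whole table, with an adjusted p under 0.05, and a log2 change is knockdown minus control on that scale. Over all 10823 genes tested, 16.8% passed it, 10.9% higher and 5.91% lower. Of those calls, 64.8% were higher, and 50.3% were after quantile normalization. Counts called in the lists below are to be read beside these shares, and no list was tested as a set. In the same 2 factors the groups did not overlap, as in 37.9% of all genes tested. SOX9, GATA6, FOXA2, PDX1 and HNF4A did not pass, with overlapping groups.

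**Figure D1:**
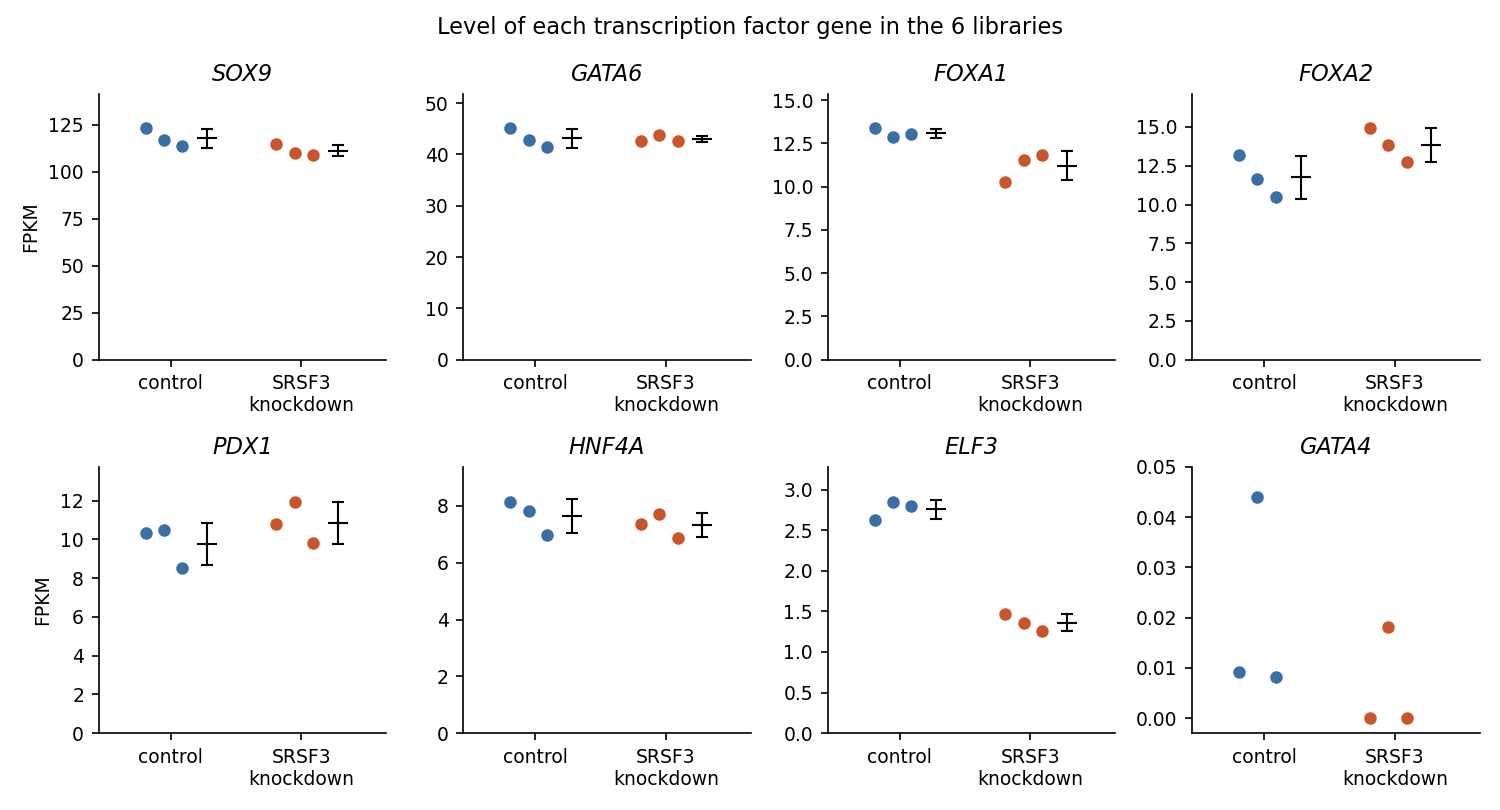
FPKM of the 8 factor genes in each library (points, control in blue and SRSF3 knockdown in red), each on its own axis from 0 except GATA4, whose axis starts just under 0. Black marks give mean ± SD (n = 3), left out for GATA4. The 3 knockdown points lie below all control points for ELF3 and FOXA1, and the groups overlap for the other factors.

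ELF3, an epithelial ETS-domain activator, fell in the knockdown libraries and had the largest log2 change of the 7 tested factors. It stood at 2.63, 2.85 and 2.80 FPKM in control libraries 1 to 3 and at 1.47, 1.35 and 1.26 FPKM in knockdown libraries 1 to 3. Every knockdown library was below every control library, with a gap larger than the spread within either group. The mean went from 2.76 ± 0.116 to 1.36 ± 0.104 FPKM, a change of -50.6%. The fit gave a log2 change of -0.67 (95% interval from -0.81 to -0.53, limma adjusted p = 0.000199). The values rest on 464, 524 and 550 fragments in controls and on 271, 242 and 248 in knockdown libraries. Counting alone gives a coefficient of variation of 4.42% in controls and 6.28% in knockdown libraries, against 4.23% and 7.67% observed. The added 1 FPKM compresses a change at this level: with 0.1 FPKM added the log2 change was -0.97, and limma voom on recovered fragment numbers gave -1.02. The call held in each of 14 alternatives, with adjusted p from 5.7e-05 to 0.00582.

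The promoters of the called pair are shown because these are the factors that changed. Each run is the 250 bases before the RefSeq gene start, from RefSeq on GRCh38.p14, written 5′ to 3′ on the gene's strand. Capitals mark matches, on either strand, to any of 7 short motifs. The ETS core was searched as GGAA. The box bound by the TATA-binding protein was searched as TATAAA. The motif of forkhead factors was searched as TGTTTAC, and that of SOX factors as ACAATG. The motif of homeodomain factors was searched as TAATTA, and that of GATA factors was searched as AGATAA. The motif of HNF4 was searched as CAAAGTCCA. No letters of one motif contain another.
ELF3, chr1:202010337-202010586, plus strand: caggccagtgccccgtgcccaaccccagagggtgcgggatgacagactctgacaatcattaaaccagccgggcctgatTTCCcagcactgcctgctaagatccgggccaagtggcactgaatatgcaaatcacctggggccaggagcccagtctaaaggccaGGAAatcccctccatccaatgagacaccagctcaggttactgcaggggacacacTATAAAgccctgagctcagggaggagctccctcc
FOXA1, chr14:37595250-37595499, minus strand: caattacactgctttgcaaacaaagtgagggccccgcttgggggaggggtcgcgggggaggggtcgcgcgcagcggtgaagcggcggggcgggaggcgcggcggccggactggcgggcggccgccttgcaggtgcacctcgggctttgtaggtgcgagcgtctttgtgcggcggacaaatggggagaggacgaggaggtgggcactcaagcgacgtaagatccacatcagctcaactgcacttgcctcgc
The ELF3 window holds TATAAA at position -34 relative to the gene start, and the ETS core at -88 and, on the other strand, at -172. Of 34943 such windows, 10.8% hold TATAAA and 92.7% hold GGAA. The FOXA1 window holds none of the 7 motifs. The GATA motif occurs in 9.19% of windows, the forkhead motif in 2.98%, the SOX motif in 9.3%, the homeodomain motif in 4.35% and the HNF4 motif in 0.326%. These matches describe letters only.

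FOXA1 and FOXA2 are forkhead pioneer factors with partly shared targets in endoderm. FOXA1 fell, with 13.4, 12.9 and 13.05 FPKM in control libraries 1 to 3 and 10.3, 11.55 and 11.8 FPKM in knockdown libraries 1 to 3. The groups did not overlap, and knockdown library 1 was the lowest. The mean went from 13.1 ± 0.256 to 11.2 ± 0.818 FPKM, with a log2 change of -0.21 (95% interval from -0.34 to -0.08, limma adjusted p = 0.0364). The call was lost without control library 1, 2 or 3 (adjusted p = 0.107, 0.103 and 0.111), without knockdown library 1 or 2 (0.0726 and 0.0708) and with no filter (0.0792). Knockdown library 1 also had the highest mitochondrial share, and without it the log2 change of FOXA1 was -0.15.

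FOXA2 stood at 13.2, 11.6 and 10.5 FPKM in control libraries 1 to 3 and at 14.9, 13.8 and 12.7 FPKM in knockdown libraries 1 to 3. The lowest knockdown library lay below the highest control library, so the groups overlapped. The mean was 11.8 ± 1.38 in controls and 13.8 ± 1.09 FPKM in knockdown libraries, with a log2 change of 0.22 (95% interval from 0.04 to 0.40). It did not pass (limma adjusted p = 0.0882). It passed in 3 of 14 alternatives, among them without control library 1 (log2 0.30, adjusted p = 0.0443) and without knockdown library 3 (0.27, 0.0403). Without knockdown library 1, where FOXA2 and the mitochondrial share were highest, the log2 change was 0.17 (adjusted p = 0.202). The observed coefficient of variation in controls was 11.7%, against 3.56% from counting.

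Within each library the order of the FOXA pair differed by label. The FOXA2 to FOXA1 ratio of FPKM was 0.987, 0.903 and 0.802 in the 3 control libraries, so FOXA1 was the higher of the pair in each. It was 1.45, 1.2 and 1.08 in the 3 knockdown libraries, where FOXA2 was the higher in each. A ratio within a library does not depend on scaling between libraries, though where it stands against 1 depends on the gene lengths the authors used. The exact two-sided permutation test gave p = 0.1, the smallest that 3 against 3 libraries allow. This was 1 of 4 ratios, chosen after values were seen, and the adjusted p = 0.133.

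**Figure D2:**
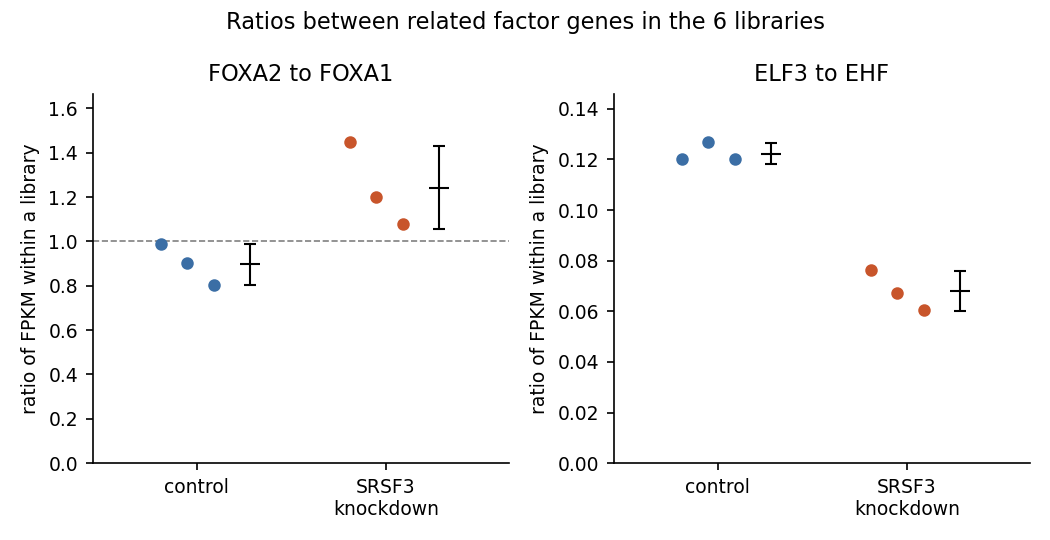
Ratio of FPKM within each library for FOXA2 to FOXA1 (left, dashed line at 1) and ELF3 to EHF (right); points are libraries and black marks mean ± SD (n = 3). The FOXA ratio runs from 0.802 to 0.987 in controls and from 1.08 to 1.45 in knockdown libraries, and the ELF3 to EHF ratio from 0.120 to 0.127 and from 0.0607 to 0.0763.

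SOX9, the SRY-box factor of progenitors and ducts, was the most abundant of the 8. It stood at 123.1, 116.6 and 113.4 FPKM in control libraries 1 to 3 and at 114.7, 109.9 and 109.0 FPKM in knockdown libraries 1 to 3. Knockdown library 1 lay above control library 3, so the groups overlapped. Its log2 change was -0.08 (95% interval from -0.20 to 0.04, limma adjusted p = 0.312). After quantile normalization it was -0.18 and passed (adjusted p = 0.0152), the one alternative in which it did. SOX9 ranked 290 of 19912 rows by mean FPKM.

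GATA6, a zinc-finger factor tied to the classical state, stood at 45.1, 42.9 and 41.4 FPKM in control libraries 1 to 3 and at 42.6, 43.8 and 42.7 FPKM in knockdown libraries 1 to 3. All knockdown values lay within the range of the controls. The change on the fitted scale was -0.167%, with a 95% interval from -7.45% to 7.69%. The limma adjusted p = 0.98, and none of the 14 alternatives gave a call.

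GATA4, its close paralog of foregut and heart, was at the limit of detection. The 3 control libraries held 1, 5 and 1 of its fragments, and the 3 knockdown libraries held 0, 2 and 0. The 2 libraries with 0 fragments allow up to 3, which is 0.0264 and 0.0247 FPKM. The ratio of knockdown to control, from 2 against 7 fragments, was 0.284, with a 95% exact interval from 0.0288 to 1.49 that covers counting error only. No difference was detectable at this depth. GATA4 did not pass the filter and was not tested with limma.

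PDX1, the homeodomain factor of the pancreatic bud and of beta cells, stood at 10.3, 10.5 and 8.52 FPKM in control libraries 1 to 3. In knockdown libraries 1 to 3 it stood at 10.8, 11.95 and 9.83 FPKM. The groups overlapped, with the highest value in knockdown library 2 and the lowest in control library 3. Its log2 change was 0.14 (95% interval from -0.05 to 0.33, limma adjusted p = 0.28). An increase of up to 25.4% lies within that interval.

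HNF4A, a nuclear receptor of gut, liver and pancreas epithelium, stood at 8.15, 7.82 and 6.98 FPKM in control libraries 1 to 3 and at 7.36, 7.73 and 6.88 FPKM in knockdown libraries 1 to 3. The groups overlapped over most of their range. The log2 change was -0.05 (95% interval from -0.20 to 0.09, limma adjusted p = 0.602). The table has 1 row for the gene, so its isoforms are not resolved.

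**Figure D3:**
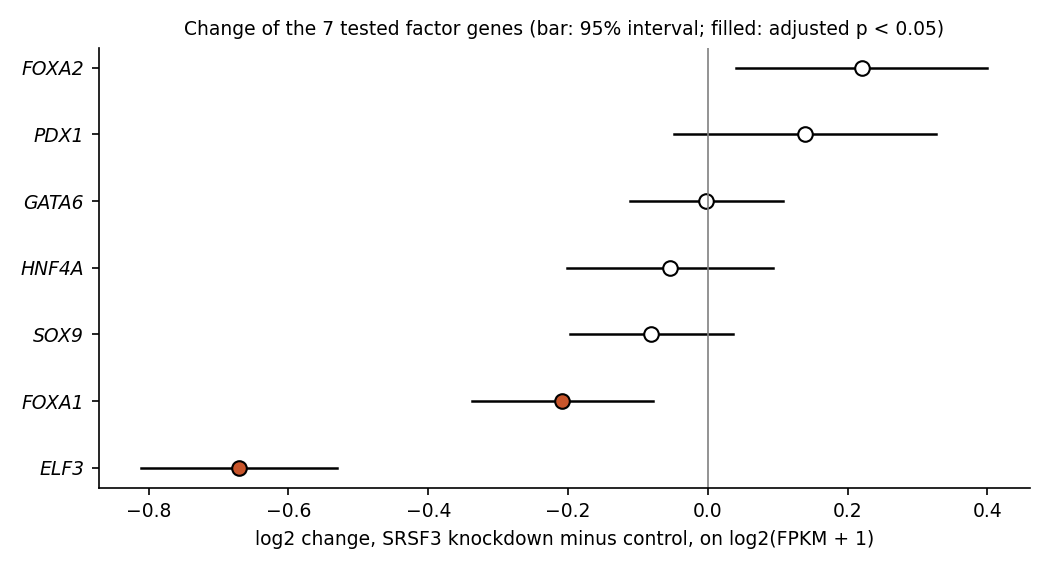
Log2 change (knockdown minus control, on log2(FPKM + 1)) of the 7 tested factors, with 95% intervals; filled points passed at an adjusted p under 0.05. ELF3 at -0.67 and FOXA1 at -0.21 are filled, and the interval of FOXA2, from 0.04 to 0.40, lies above 0 although its adjusted p was 0.0882.

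FPKM is scaled by gene length, so levels can be ordered between genes, though the order depends on the gene lengths the authors used. Small steps, such as 1.11-fold between FOXA1 and FOXA2 in controls, are therefore uncertain. In controls the order by mean was SOX9, GATA6, FOXA1, FOXA2, PDX1, HNF4A, ELF3 and GATA4. SOX9 was 2.73-fold above GATA6 and GATA6 was 3.29-fold above FOXA1, with no overlap between libraries. FOXA1 and FOXA2 overlapped, as did FOXA2 and PDX1. In knockdown libraries FOXA2 stood between GATA6 and FOXA1, and FOXA1 and PDX1 overlapped, at 11.2 and 10.85 FPKM. HNF4A was 2.77-fold above ELF3 in controls and 5.38-fold above it in knockdown libraries. ELF3 ranked 8630 of 19912 rows and GATA6 957.

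**Figure D4:**
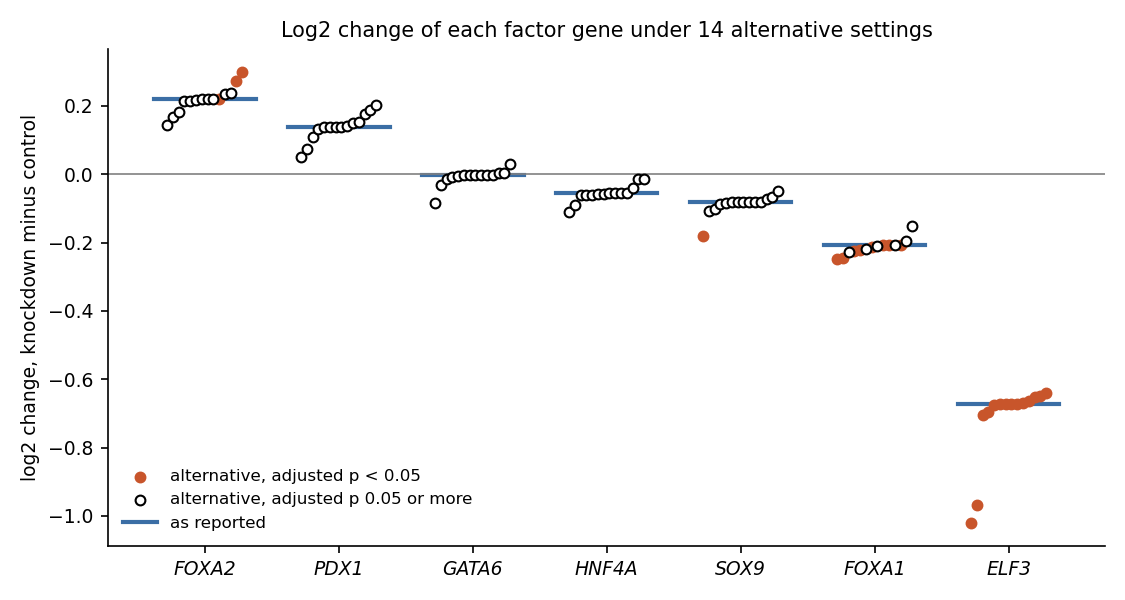
Log2 change of the 7 tested factors as reported (blue line) and under 14 alternatives (points, filled where the adjusted p was under 0.05). All ELF3 points are filled, 8 of 14 are filled for FOXA1, 3 for FOXA2, 1 for SOX9 and 0 for PDX1, GATA6 and HNF4A; the 2 lowest ELF3 points use another added constant or recovered fragments.

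Of 11 paralogs of the factors, 5 were tested and 0 passed in limma, where 16.8% of all genes tested passed. Their median log2 change was -0.16 against 0.02 over all genes tested. The paralog median is the value of HNF4G, at 0.634 FPKM in controls and 0.463 FPKM in knockdown libraries. HNF4G reached the filter of 0.5 FPKM only through the controls, so no shared fall of the paralogs is read from that median. EHF, the ETS factor closest in role to ELF3, stood at 21.9, 22.4 and 23.4 FPKM in control libraries 1 to 3 and at 19.3, 20.0 and 20.8 FPKM in knockdown libraries 1 to 3. The EHF groups did not overlap, and its log2 change of -0.16 lay at the threshold (limma adjusted p = 0.0501). It passed in 6 of 14 alternatives, among them without knockdown library 3 (0.0245), and the adjusted p ran from 0.0237 to 0.195. EHF was above ELF3 in every library, and the ELF3 to EHF ratio of FPKM had a mean of 0.122 ± 0.00426 in controls and 0.0682 ± 0.00779 in knockdown libraries (exact permutation p = 0.1, adjusted p = 0.133). GATA2, known from blood and endothelium, stood at 7.19 ± 0.200 and 6.28 ± 0.659 FPKM (limma adjusted p = 0.112), with groups that did not overlap. Groups did not overlap in 2 of the 5 tested paralogs and in 37.9% of all genes tested.

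Among 28 other factors of endoderm, pancreas progenitors, islet and acinar cells, 10 were tested, 1 passed lower and 0 higher in limma (16.8% of all genes passed). The one that fell was BHLHA15 (MIST1), a factor of secretory cells, from 16.7 ± 0.596 to 14.2 ± 0.274 FPKM (log2 -0.22, limma adjusted p = 0.0146). Its call was lost without control library 1 or 2 (adjusted p = 0.055 and 0.086) and with voom (0.0888). The most abundant of the list was CDX2, a factor of intestinal epithelium, at 69.1, 63.7 and 63.0 FPKM in control libraries 1 to 3. In knockdown libraries 1 to 3 it stood at 80.8, 74.3 and 68.7 FPKM (log2 0.19, limma adjusted p = 0.074). CDX2 was thus above GATA6 and below SOX9 in every library. It passed in 2 of 14 alternatives, among them without knockdown library 3 (log2 0.25, adjusted p = 0.0165), and after quantile normalization its log2 change was 0.09 (0.216). TBX3 followed at 34.1 ± 0.246 and 36.1 ± 1.85 FPKM (limma adjusted p = 0.309). Of the 28, 8 were listed at 0 in all 6 libraries.

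Of 14 general epithelial factors, all tested, 1 passed higher and 1 lower (16.8% of all genes tested passed), with a median log2 change of -0.03. The splicing regulator gene ESRP2 rose from 24.2 ± 1.46 to 28.3 ± 1.31 FPKM, and its paralog ESRP1 fell from 2.52 ± 0.407 to 1.87 ± 0.148 FPKM (limma adjusted p = 0.0272 and 0.043). The ESRP2 call was lost without control library 2 or 3 (0.101 and 0.121), without knockdown library 2 (0.101), with no filter (0.0661) and with quantile normalization (0.0762). The ESRP1 call was lost without control library 2 or 3 (0.093 and 0.167), without knockdown library 1, 2 or 3 (0.0978, 0.0713 and 0.0562), with no filter (0.125) and with quantile normalization (0.0691). KLF5 and CEBPB, the most abundant, stood at 47.7 ± 1.01 and 35.2 ± 0.598 FPKM in controls, with log2 changes of 0.02 and -0.02.

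Neighbouring noncoding RNAs of the factors gave no call. Of 11 lncRNAs named for or known near a member, 6 have a row in the lncRNA table and 3 were tested on log2(FPKM + 0.1). Among the lncRNAs as a whole, limma called 0 of 3092 (0.0%), and 284 had an unadjusted p under 0.05. For ELF3-AS1 the 3 control libraries held 27, 12 and 14 fragments and the 3 knockdown libraries 10, 5 and 17, with overlapping groups (log2 -0.65, 95% interval from -1.62 to 0.32, limma adjusted p = 0.674). GATA6-AS1 stood at 0.848 ± 0.104 and 0.805 ± 0.138 FPKM (limma adjusted p = 0.929). LINC00511, near SOX9, stood at 4.02 ± 0.190 and 4.09 ± 0.216 FPKM (limma adjusted p = 0.953). LINC00261, known beside FOXA2, had 0 fragments in each library, which allows up to 3 per library. Whether counting used strand was not given in the sources used here. Reads of ELF3-AS1 and ELF3, or of GATA6-AS1 and GATA6, can therefore have been assigned to either.

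The factors are known for the genes of the classical state, so those were read from the same fit. Of 24 classical genes, 7 were tested, 4 passed lower and 0 higher, with a median log2 change of -0.23. Over all genes tested, 5.91% passed lower and 10.9% higher. Of the 24, 5 were listed at 0 in all libraries. TFF3, a secreted trefoil peptide, fell from 2.58 ± 0.242 to 1.34 ± 0.0622 FPKM (log2 -0.61, limma adjusted p = 0.000572), and TFF1, another trefoil gene, fell by 1.12 on the log2 scale. TFF2, with 9 to 16 fragments per library, had a log2 change of -0.23 (limma adjusted p = 0.0468), the same value as the list median. Its mean was 0.688 FPKM in controls and 0.435 FPKM in knockdown libraries, so it reached the filter of 0.5 FPKM only through the controls. Its call was lost when any 1 of the 6 libraries was left out (adjusted p from 0.0647 to 0.165), with no filter (0.0526), after quantile normalization (0.0858) and with voom (0.187). AGR2, a disulfide isomerase of mucus-secreting cells, stood at 83.9 ± 1.12 and 65.0 ± 11.9 FPKM (limma adjusted p = 0.0283). Its call was lost without control library 1, 2 or 3 (0.0728, 0.0801 and 0.0896) or knockdown library 2 or 3 (0.107 and 0.0521), and with no filter (0.109). TSPAN8, a tetraspanin, stood at 74.0 ± 1.90 and 78.2 ± 4.31 FPKM (limma adjusted p = 0.336). Without control library 1, 2 or 3, or knockdown library 2 or 3, 2 classical genes passed lower.

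Of 23 basal-like genes, 9 were tested, 4 passed higher and 2 lower, with a median log2 change of 0.27. The shares over all genes tested were 10.9% higher and 5.91% lower. TNS4, a focal adhesion adaptor, rose from 241.7 ± 15.5 to 387.9 ± 41.2 FPKM, and the EGFR ligand gene AREG from 15.8 ± 0.839 to 19.3 ± 0.319 FPKM (limma adjusted p = 0.000968 and 0.00786). The glucose transporter gene SLC2A1 rose by a log2 change of 0.40. FGFBP1, which releases fibroblast growth factors from the matrix, fell from 17.7 ± 0.680 to 13.3 ± 1.87 FPKM (limma adjusted p = 0.0111, 0.0565 with no filter). Without knockdown library 2, 1 basal-like gene passed lower.

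**Figure D5:**
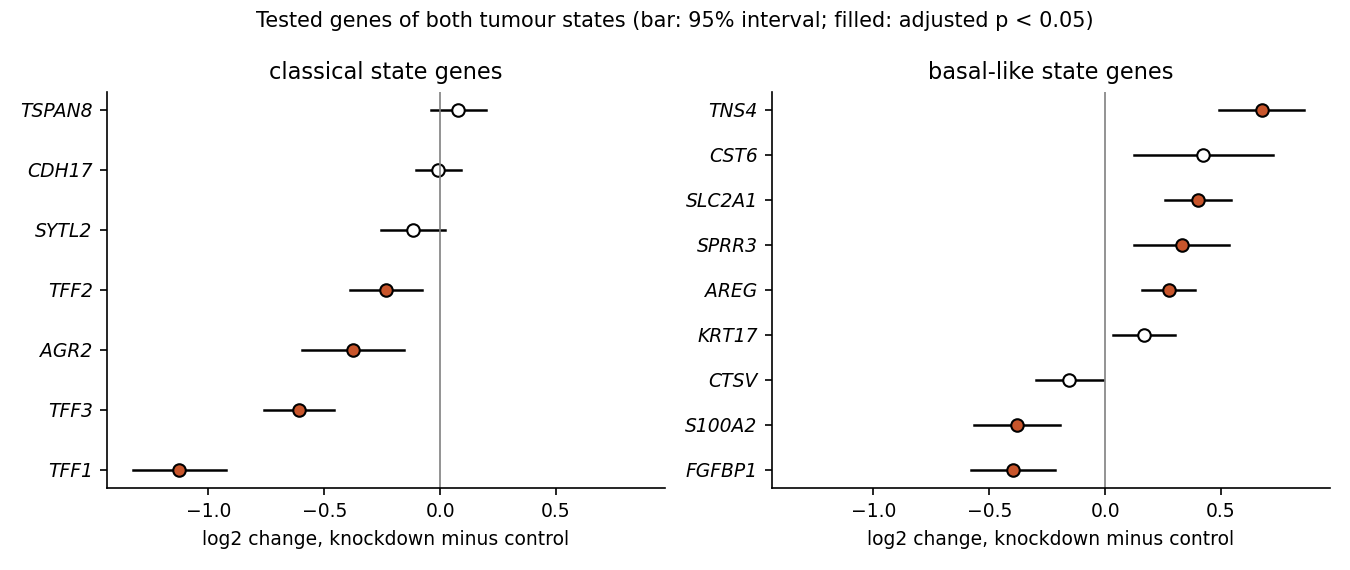
Log2 change (knockdown minus control) with 95% intervals for the tested genes of the classical list (left, 7 genes) and the basal-like list (right, 9 genes); filled points passed at an adjusted p under 0.05. On the left the 4 filled points lie below 0, and on the right 4 lie above and 2 below.

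Of 15 factors of the basal-like and mesenchymal state, 7 were tested, 3 passed higher and 1 lower, with a median log2 change of 0.12. Among all genes tested, 10.9% passed higher and 5.91% lower. The AP-1 factor gene FOSL1 rose from 48.4 ± 2.33 to 78.6 ± 8.03 FPKM (limma adjusted p = 0.000427). SNAI1, a repressor of epithelial genes, rose from 0.661 ± 0.176 to 1.31 ± 0.268 FPKM (limma adjusted p = 0.0128), a call lost without knockdown library 2 (0.0535) and with no filter (0.0579). PRRX1, a homeobox gene of mesenchyme, stood at 1.91 ± 0.101 and 2.55 ± 0.261 FPKM (limma adjusted p = 0.0208), a call lost without control library 1, 2 or 3 (0.0697, 0.0764 and 0.0519) and with no filter (0.066). BHLHE40 fell by 0.25 on the log2 scale (limma adjusted p = 0.0132), a call lost without control library 1, 2 or 3 (0.0504, 0.0533 and 0.0532). GLI2 was under the filter, at a mean of 0.401 FPKM, and was not tested. It was lower in the knockdown libraries, at 0.548 ± 0.0451 FPKM in controls and 0.254 ± 0.0846 FPKM in knockdown libraries. ZEB2, TWIST1 and TWIST2 were listed at 0 in all 6 libraries. GLI2 and these genes were named after their values were seen.

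In the Notch, Hippo and WNT genes tied to SOX9 in the duct, 13 of 15 were tested, 2 passed higher and 1 lower. Over all genes tested, 16.8% passed in either direction. JAG1, a Notch ligand, stood at 22.2, 21.8 and 20.7 FPKM in control libraries 1 to 3 and at 31.7, 32.5 and 33.4 FPKM in knockdown libraries 1 to 3. Every knockdown library was above every control (log2 0.57, limma adjusted p = 0.00011), and the call held in all 14 alternatives. JAG2, another ligand, fell from 5.26 ± 0.220 to 4.01 ± 0.470 FPKM (limma adjusted p = 0.0165), a call lost without control library 1 or 2 (0.0575 and 0.0653) and with no filter (0.0633). TEAD4, the DNA-binding partner of YAP, stood at 28.6 ± 0.767 and 32.6 ± 1.78 FPKM (limma adjusted p = 0.0432). Its call was lost without control library 1, 2 or 3 (0.0777, 0.175 and 0.137), knockdown library 1 or 2 (0.0858 and 0.121), with no filter (0.0767) and with median scaling (0.0541) or quantile normalization (0.132). AXIN2, a WNT target, was abundant at 59.3 ± 0.901 and 58.0 ± 1.09 FPKM (limma adjusted p = 0.665), and passed only after quantile normalization among the 14 alternatives (0.041).

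Of 15 partners and cofactors of GATA, FOXA and HNF4 factors, 10 were tested (16.8% of all genes tested passed), 2 passed higher and 0 lower. These were the Groucho-family corepressor genes TLE1, from 6.76 ± 0.486 to 8.12 ± 0.0490 FPKM, and TLE3, from 2.72 ± 0.0401 to 3.45 ± 0.374 FPKM (limma adjusted p = 0.0228 and 0.0339). The TLE1 call was lost without control library 1 or 2 (0.075 and 0.113), without knockdown library 2 (0.0667) and with no filter (0.0551). The TLE3 call was lost without control library 1, 2 or 3 (0.083, 0.114 and 0.101), knockdown library 1 or 2 (0.0807 and 0.111) and with no filter (0.0959). LDB1 and CREBBP, the most abundant, had log2 changes of -0.01 and 0.05.

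Of 12 duct markers, 8 were tested and 0 passed in limma, where 16.8% of all genes tested passed. The summed level of the 12 markers ran from 3510 to 3720 FPKM in controls and from 3680 to 4630 FPKM in knockdown libraries. It was highest in knockdown library 1. FPKM summed over all mRNA rows also differed. It ran from 275359 to 285701 in controls and was 336887, 308101 and 287148 in knockdown libraries 1 to 3. Libraries were not rescaled, so the summed duct level carries that difference. The keratin genes KRT8 and KRT18 were the most abundant, at 1613 ± 46.8 and 1391 ± 42.8 FPKM in controls and 1760 ± 150 and 1733 ± 296 FPKM in knockdown libraries (limma adjusted p = 0.361 and 0.0923). KRT18, with a log2 change of 0.30, passed in 3 of 14 alternatives, among them without knockdown library 3 (log2 0.40, adjusted p = 0.0191) and with voom (0.30, 0.041), and after quantile normalization its log2 change was 0.04 (0.736). The duct keratin gene KRT7, named after its values were seen, lay between 0.0895 and 0.241 FPKM, and KRT19 between 377.6 and 444.5 FPKM. Of 12 acinar markers 2 were tested, of 10 islet markers 1 and of 14 fibroblast, endothelial and immune markers 0, and 0 of these passed. The summed level was 10.4 to 14.6 FPKM in controls and 8.88 to 13.7 FPKM in knockdown libraries for acinar markers, of which PRSS2 and CEL were tested (log2 changes of -0.14 and 0.08). It was at most 0.947 FPKM for islet markers, of which PPY was tested (log2 0.05), and at most 0.718 FPKM for the stromal and immune list in every library, with the defining genes INS, GCG and PTPRC listed at 0. The part of other cells in the factor values was not tested.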

How the data were processed

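RNA was sequenced from 3 control and 3 SRSF3 knockdown libraries. The authors deposited FPKM values per gene symbol in an mRNA and a lncRNA table. Per the submitters' processing notes, the tools were HISAT2, StringTie, Cuffdiff and edgeR; their roles, the genome build and the annotation were not given in the sources used here. Per the labels' protocols there were a poly-A preparation and a stranded preparation depleted of rRNA; which of them gave which table is not said. Whole fragment numbers were recovered from the FPKM steps, with 1 total per library and 1 length per row, within 0.003 fragments, with a proportional allowance for the most abundant rows. The totals' common factor was set by 4 mitochondrial genes, whose lengths matched the reference. Of 14803 mRNA rows above 0 in at least 3 libraries, 14776 were placed.

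limma 3.58.1 in R 4.3.3 was run with a trended empirical Bayes prior. Tests were two-sided and adjusted by Benjamini-Hochberg over each table (threshold 0.05). mRNAs entered as log2(FPKM + 1) if their mean reached 0.5 FPKM, and lncRNAs as log2(FPKM + 0.1) if it reached 0.1 FPKM. Libraries were not rescaled. For low genes, fold changes on these scales are smaller than the true ratio of FPKM. The fit was also run on simulated fragment numbers, with 1 spread beyond counting for every gene. That spread was below the one observed in controls for FOXA2, PDX1 and HNF4A, and in knockdown libraries for FOXA1. The run therefore does not gauge the results of these factors. Other steps ran in Python 3.11.15 (pandas 2.3.3, numpy 2.4.6).

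The members and the 13 gene lists were chosen with earlier results of these data known. The genes named are all members, SRSF3, the called genes of each list (the 4 with the smallest p where more were called) and its 2 most abundant tested genes. VIM, CDH1, KRT7, KRT19, ZEB2, TWIST1, TWIST2, GLI2, HNF4G, INS, GCG, PTPRC and the lncRNAs ELF3-AS1 and LINC00261 fall outside that rule. Of the 8 members, 4 have a promoter in the RefSeq table used. Alternatives were a pseudocount of 0.1 FPKM, no filter, a minimum of 2 FPKM, quantile normalization, median scaling, a robust prior, voom on recovered fragments, a replicate block and each library left out.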

Additional observations from a re-analysis of the deposited data

How the results depend on the processing

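With no filter, 960 genes, 1 factor, 2 classical genes (lower) and 0 basal-like genes (lower) passed in limma, with 3 basal-like genes higher, against 1819, 2, 4 and 2 as reported, and FOXA1 lost its call at an unchanged log2 of -0.21; that setting adds genes of very low level to the test. At a mean of at least 2 FPKM, 2 classical genes passed lower, since fewer were tested. SOX9 passed after quantile normalization, at -0.18. Leaving out each library in turn gave 647 to 2742 genes, 1 to 3 factors, 2 to 3 classical and 1 to 2 basal-like genes lower, and log2 changes of -0.24 to -0.15 for FOXA1, 0.14 to 0.30 for FOXA2 and -0.70 to -0.64 for ELF3. In these fits a group of 2 was assumed to vary like the other group. No called result reversed. Without control library 2 or 3, knockdown library 1 or 2, ELF3 was the 1 factor called.

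Whether same-numbered libraries belong together was not given in the sources used here. Deviations of same-numbered libraries from the group means correlated at 0.08, 0.04 and 0.28. Control library 1 correlated best with knockdown library 2 (0.15), and control library 3 with knockdown library 3 (0.28). These correlations do not settle whether the libraries are paired. With a replicate block 2323 genes passed, and FOXA2 passed at an unchanged log2 of 0.22 (limma adjusted p = 0.0161), as did CDX2 (0.19, 0.0227), KRT18 (0.30, 0.0404) and EHF (-0.16, 0.0311). Among the named genes of the lists, 412 results under the alternatives kept their side of the threshold, 61 lost and 12 gained a call. Depth limits GATA4, ELF3-AS1 and the paralogs under the filter.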
